A study of Homo sapiens with 4 samples.

Results

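The oxygen-sensing pathway of the hypoxia-inducible factors (HIF) was followed through 10 genes, taken by gene symbol from the deposited table of 35371 symbols, and all 10 were found there. The cells were A2780, an established line from a human ovarian cancer, grown as a flat culture in serum-containing medium in an incubator held at 5% CO2, for which no hypoxic exposure is named in the labels. RNA-seq libraries came from 2 control samples and 2 samples given GD-07, a small molecule that the series text calls an inhibitor of MYC, with neither dose nor duration stated. The series text speaks of vehicle for the controls, whereas their labels list no treatment, and all 4 libraries share the same line and medium. Whether the replicates were separate cultures is not stated, so every p-value below measures only the spread among these libraries. Values are TPM, a level per transcript length scaled to each library's total, which can be compared between genes. The number of reads behind a TPM value is unknown.

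Cells sense oxygen through enzymes that hydroxylate the HIF alpha subunits. In oxygen, the prolyl hydroxylases of the EGLN family mark HIF1A and EPAS1 (HIF-2 alpha), VHL recognises the mark, and the subunit is destroyed. When oxygen falls, the alpha subunit persists, pairs with ARNT (HIF-1 beta) and switches on genes for blood vessel growth, acid handling and glycolysis. Much of this control acts on protein, which was not measured, and in many tumour cells MYC and HIF share metabolic target genes.

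None of the 7 testable genes among the 10 passed limma's test between GD-07 and control libraries, and 2 of them, HIF1A and ARNT, had an unadjusted p under 0.05. HIF1A and ARNT, the subunits of the HIF-1 dimer, had the most negative differences among the 7 tested genes, and in each of these 2 genes both GD-07 libraries lay below both control libraries. VHL was slightly above its control values in both GD-07 libraries, and the secreted factors VEGFA and ADM overlapped between groups. Such separation is common here, with GD-07 wholly below in 30.5% and wholly above in 25.3% of all tested genes. CA9 was split between the GD-07 libraries, at 0.103 TPM in replicate 1 and 4.49 TPM in replicate 2. EPAS1, EGLN3 and NDRG1 averaged under 1 TPM and were not tested. Over the whole table limma called 681 of 13063 tested genes at a Benjamini-Hochberg adjusted p under 0.05, or 5.21%, with 417 lower (3.19%) and 264 higher (2.02%), and 24.8% had an unadjusted p under 0.05. After quantile normalization the calls split into 395 lower and 383 higher. When no filter was set, limma called none of 26773 genes (3970 at an unadjusted p under 0.05), so each call named below holds only among genes of at least 1 TPM on average.

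**Figure D1:**
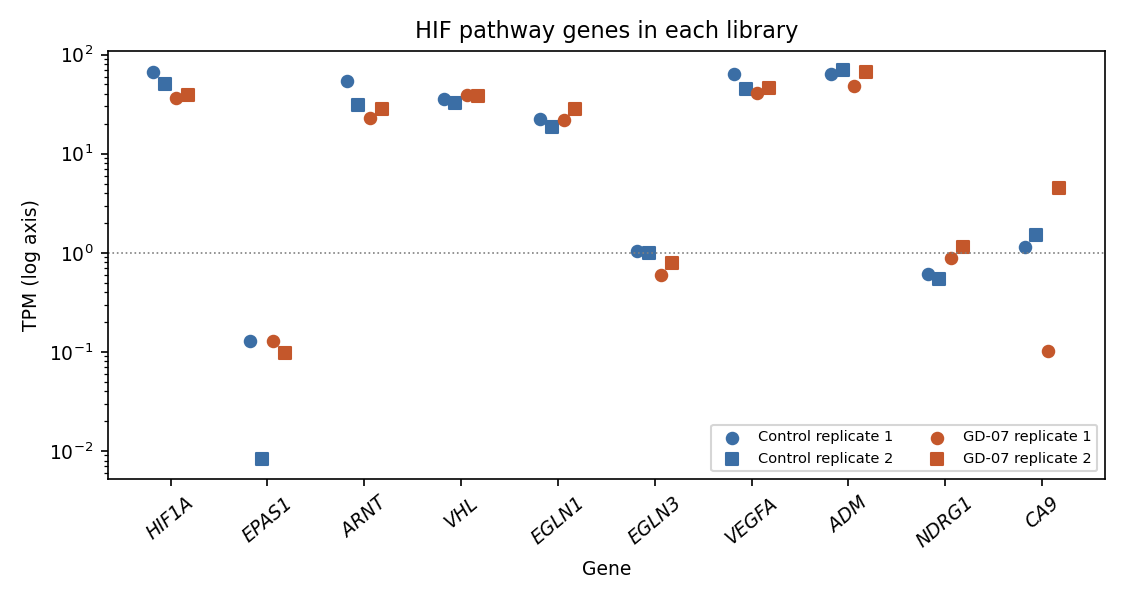
TPM of the 10 genes in each library on a log axis, with controls in blue, GD-07 in orange, replicate 1 as circles and replicate 2 as squares; the dotted line marks 1 TPM. HIF1A, ARNT, VHL, EGLN1, VEGFA and ADM lie above 18 TPM in all 4 libraries, whereas EPAS1 stays under 0.13 TPM and CA9 spans 0.103 to 4.49 TPM within the GD-07 pair.

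In the controls the levels ran, from the highest mean down, ADM, HIF1A, VEGFA, ARNT, VHL, EGLN1, CA9, EGLN3, NDRG1 and EPAS1. From ADM to VHL each gene overlapped its neighbour in that order, and from VHL down no neighbours overlapped. With GD-07 the order was ADM, VEGFA, VHL, HIF1A, ARNT, EGLN1, CA9, NDRG1, EGLN3 and EPAS1, so that VHL stood above HIF1A by mean, although these neighbours overlapped, as did ARNT with EGLN1 and CA9 with NDRG1. The 6 abundant genes thus held between 18.5 and 69.7 TPM in any library, and the other 4 stayed at or under 4.49 TPM.

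HIF1A encodes the oxygen-labile alpha subunit of HIF-1 and maps to 61695513-61748259 on the plus strand of chromosome 14 in GRCh38. It was at 66.8 and 50.5 TPM in control replicates 1 and 2, and at 36.1 and 39.5 TPM in GD-07 replicates 1 and 2. The GD-07 pair lay close together and wholly below the control pair. Means were 58.7 ± 11.5 TPM and 37.8 ± 2.43 TPM (SD, n = 2 each). The log2 fold change, on the log2(TPM + 1) scale, was -0.61 ± 0.17 (limma standard error, 95% interval -1.001 to -0.21). In bulk RNA such a difference cannot be assigned to fewer cells with the transcript or to less of it per cell. HIF1A did not pass after adjustment over all tested genes (limma adjusted p = 0.0744). It passed without control replicate 2 (limma adjusted p = 0.0426) and without GD-07 replicate 2 (0.00795), fits in which the pair left whole supplies the spread, but not without control replicate 1, where the log2 fold change was -0.41 (limma adjusted p = 0.566), nor without GD-07 replicate 1, where it was -0.54 (limma adjusted p = 0.0549).

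ARNT encodes the oxygen-independent partner of the alpha subunits and maps to 150809705-150876768 on the minus strand of chromosome 1. Its levels were 54.1 and 31.2 TPM in the controls and 22.7 and 28.1 TPM with GD-07. The groups did not overlap, but control replicate 2 was nearer to the GD-07 libraries than to the other control. Means were 42.6 ± 16.2 and 25.4 ± 3.84 TPM (SD, n = 2 each), which gave -0.68 ± 0.25 in log2 (limma adjusted p = 0.132). Without control replicate 1 the value was -0.29 (limma adjusted p = 0.751) and without GD-07 replicate 1 it was -0.53 (limma adjusted p = 0.161), whereas ARNT passed without control replicate 2 at -1.07 (limma adjusted p = 0.00395) and without GD-07 replicate 2 at -0.83 (limma adjusted p = 0.00656). The gap between the control libraries for ARNT was larger than that of 98.5% of tested genes.

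EPAS1, the alpha subunit of HIF-2, maps to 46293667-46386703 on the plus strand of chromosome 2. It measured 0.128 and 0.00823 TPM in the control libraries, and 0.128 and 0.0967 TPM under GD-07. The second control value was the lowest and the groups overlapped. HIF3A, the third alpha subunit gene, measured 1.22 and 1.26 TPM in the control libraries, and 1.06 and 0.843 TPM under GD-07 (limma adjusted p = 0.594), and ARNT2, a close relative of ARNT, was under 0.39 TPM in all 4 libraries. HIF1A and ARNT were therefore the abundant HIF subunit transcripts of these libraries.

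VHL, the substrate receptor of the ubiquitin ligase that removes hydroxylated alpha subunits, maps to 10141008-10152220 on the plus strand of chromosome 3. It measured 35.4 and 32.7 TPM in the control libraries, and 39.3 and 38.1 TPM under GD-07. Both GD-07 values were the higher ones, by a small margin. The log2 fold change was 0.18 ± 0.15 (limma 95% interval -0.16 to 0.52, adjusted p = 0.494). The other parts of the ligase that were measured did not pass either. The elongin genes TCEB1 and TCEB2, the cullin CUL2 and the RING subunit RBX1 had log2 fold changes of -0.09, 0.06, 0.31 and 0.15, with limma adjusted p between 0.408 and 0.888.

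EGLN1 (PHD2), the main HIF prolyl hydroxylase of most cells, maps to 231363751-231425044 on the minus strand of chromosome 1. It measured 22.2 and 18.5 TPM in the control libraries, and 21.7 and 28.5 TPM under GD-07. Only GD-07 replicate 2 stood above both controls. The log2 fold change was 0.28 ± 0.19 (limma 95% interval -0.15 to 0.72, adjusted p = 0.392). It ranged from 0.094 without GD-07 replicate 2 to 0.47 without GD-07 replicate 1 and was 0.16 without control replicate 2. EGLN3 (PHD3), a hydroxylase that is itself induced by HIF, maps to 33924231-34462774 on the minus strand of chromosome 14. It measured 1.05 and 0.985 TPM in the control libraries, and 0.598 and 0.792 TPM under GD-07. The GD-07 values were both lower, at levels under the filter of 1 TPM on the mean, so no test was made. EGLN2 (PHD1), the third hydroxylase, was the most abundant of the family, with 80.8 and 84.1 TPM in the control libraries against 96.7 and 71.9 TPM under GD-07, a log2 difference of 0.02 (limma adjusted p = 0.967). HIF1AN, the asparaginyl hydroxylase that blocks the alpha subunit's coactivator contact, differed by -0.26 in log2 (limma adjusted p = 0.389).

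Because a library's overall scale cancels in a ratio of 2 genes of the same library, ratios were taken of the dimer subunits to the degradation genes, a choice made after their values were seen. HIF1A over VHL was 1.89 and 1.55 in the controls and 0.919 and 1.04 with GD-07. HIF1A over EGLN1 was 3.01 and 2.74 in the controls and 1.66 and 1.39 with GD-07. In both ratios the GD-07 libraries lay below the controls. For HIF1A over VHL this follows from the levels of the 2 genes already given and adds nothing to them. ARNT over EGLN1 was 2.43 and 1.69 in the controls and 1.05 and 0.987 with GD-07. HIF1A over ARNT overlapped between the groups, at 1.23 and 1.62 in the controls and 1.59 and 1.41 with GD-07. These ratios show unequal levels, carry no test, and do not say which gene of a pair differed.

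**Figure D2:**
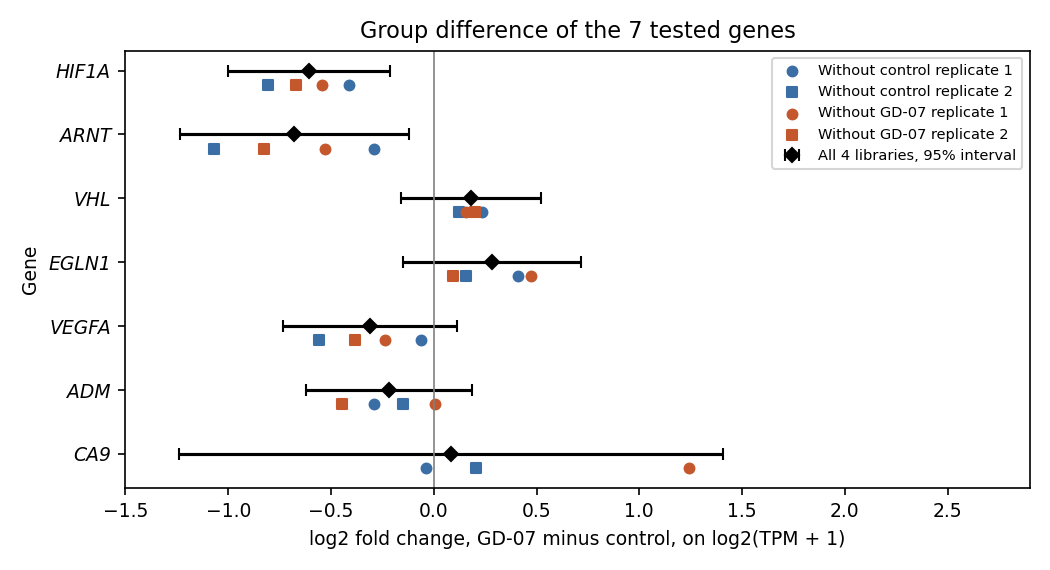
log2 fold change of the 7 tested genes, GD-07 minus control on log2(TPM + 1), with limma's 95% interval as black bars and, just below each, the value with 1 library left out. The intervals of HIF1A and ARNT lie below 0 before adjustment over all genes, and ARNT ranges from -1.07 to -0.29 with the library left out.

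VEGFA, the main growth factor for blood vessels and a classical HIF target, maps to 43770184-43786487 on the plus strand of chromosome 6. It measured 64.2 and 45.3 TPM in the control libraries, and 41.2 and 45.6 TPM under GD-07. Control replicate 1 stood above the other 3 libraries, which lay within 5 TPM of each other. The log2 fold change was -0.31 ± 0.19 (limma 95% interval -0.73 to 0.11, adjusted p = 0.338), and it was -0.06 without control replicate 1 and -0.56 without control replicate 2. Of the other VEGF ligands and receptors, 5 of 13 were abundant enough to test, and 1 passed, beside 5.21% of all tested genes. PGF, the placental growth factor of the VEGF family, fell from 53.0 and 55.3 TPM in the controls to 29.5 and 28.2 TPM with GD-07. Its log2 fold change was -0.89 ± 0.15 (limma adjusted p = 0.0214), and the call held in every one of the 4 fits without 1 library. VEGFB did not pass, at 67.6 and 73.8 TPM against 60.7 and 74.9 TPM (limma adjusted p = 0.836). Of the receptors, FLT4 differed by -0.44 in log2 (limma adjusted p = 0.164), and FLT1 and KDR were under 0.19 TPM in all 4 libraries.

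ADM, which encodes the vessel-relaxing peptide adrenomedullin and is induced by hypoxia in many cell types, maps to 10304680-10307397 on the plus strand of chromosome 11. It measured 63.1 and 69.7 TPM in the control libraries, and 48.5 and 66.6 TPM under GD-07. Only GD-07 replicate 1 lay outside the control range. The log2 fold change was -0.22 ± 0.18 (limma 95% interval -0.62 to 0.19, adjusted p = 0.487), and it moved to 0.01 when GD-07 replicate 1 was left out and to -0.44 when GD-07 replicate 2 was. None of the 4 tested genes of the adrenomedullin system passed limma's adjusted test. An unadjusted limma p under 0.05 was found for 1 of the 4, beside 24.8% of all tested genes. PAM, which amidates the peptide to its active form, measured 16.4 and 13.7 TPM in the control libraries, and 20.4 and 39.0 TPM under GD-07 (limma adjusted p = 0.0906). ADM2, which encodes a related peptide, measured 9.30 and 7.84 TPM in the control libraries, and 10.2 and 11.3 TPM under GD-07 (limma adjusted p = 0.360). CALCRL, the receptor, was between 2.93 and 4.09 TPM, whereas its partners RAMP1, RAMP2 and RAMP3 were under 0.13 TPM in all 4 libraries, with RAMP3 listed at 0 throughout.

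NDRG1, a stress-response gene that hypoxia induces and MYC is known to repress, maps to 133237171-133302022 on the minus strand of chromosome 8. It measured 0.617 and 0.547 TPM in the control libraries, and 0.879 and 1.15 TPM under GD-07. Both GD-07 values were the higher ones, with a ratio of means of 1.74, but the mean was under the filter and no test was made. In the fit without a filter NDRG1 differed by 0.35 in log2 (limma adjusted p = 0.369). Its relatives NDRG2, NDRG3 and NDRG4 were between 8.02 and 25.1 TPM and did not pass.

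CA9, a cell-surface carbonic anhydrase that is among the most hypoxia-responsive genes known, maps to 35673856-35681159 on the plus strand of chromosome 9. It measured 1.14 and 1.52 TPM in the control libraries, and 0.103 and 4.49 TPM under GD-07. The GD-07 libraries lay on opposite sides of the controls, and replicate 2 was 43.7 times replicate 1. The log2 fold change was 0.08 ± 0.59 (limma 95% interval -1.24 to 1.41, adjusted p = 0.946). CA9 entered the test only through GD-07 replicate 2, since without that library its mean fell under 1 TPM, and without GD-07 replicate 1 it passed as higher at 1.24 (limma adjusted p = 0.00375). ARHGEF39, whose gene overlaps CA9 on the opposite strand, measured 35.01 and 28.98 TPM in the control libraries, and 19.8 and 19.5 TPM under GD-07. Its part in the CA9 values was not tested. None of 5 other tested carbonic anhydrases passed limma's adjusted test, and 4 values were negative and 1 positive. An unadjusted limma p under 0.05 was found for 3 of the 5, beside 24.8% of all tested genes. CA12, another hypoxia-induced member named for that role after its values were seen, measured 7.26 and 5.99 TPM in the control libraries, and 2.81 and 5.05 TPM under GD-07 (limma adjusted p = 0.156). CA14 was at 49.2 and 43.4 TPM against 25.4 and 32.3 TPM (limma adjusted p = 0.0556). CA13, a cytosolic carbonic anhydrase, pointed the other way, with 0.854 and 0.756 TPM in the controls and 1.57 and 1.74 TPM with GD-07 (limma adjusted p = 0.144), and its mean was above 1 TPM only through the GD-07 libraries.

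HIF dimers bind a short core, ACGTG or GCGTG, and MYC with MAX binds CACGTG, which contains the first of these. RefSeq promoter windows on GRCh38.p14, 300 bases long and reaching 50 bases past the start, were matched for 7 of the 10 genes, with 2 windows for HIF1A. The core was present on either strand in 5 of these 8 windows, each in a different gene, against 48.4% of all 35116 windows, and CACGTG was in none of the 8, against 7.26% of all. The stretches around each core are shown so that the letters searched can be read beside the genes' values. The core is in capitals, the sequence is on the gene's strand 5′ to 3′, and none passes the start. The start here is that of the RefSeq promoter window, which can differ from the end of the GENCODE gene span given above. By those spans the stretches of CA9, EGLN1, ADM and EPAS1 lie inside the gene, and that of HIF1A lies before it.
CA9, chr9:35673875-35673927, plus strand: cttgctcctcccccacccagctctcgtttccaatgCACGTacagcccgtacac
EGLN1, chr1:231422288-231422335, minus strand: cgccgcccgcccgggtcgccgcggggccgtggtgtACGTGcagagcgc
ADM, chr11:10304937-10305011, plus strand: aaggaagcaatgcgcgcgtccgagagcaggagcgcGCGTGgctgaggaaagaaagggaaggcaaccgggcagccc
HIF1A, chr14:61695274-61695348, plus strand: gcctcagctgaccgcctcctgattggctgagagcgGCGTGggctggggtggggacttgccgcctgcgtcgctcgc
EPAS1, chr2:46297255-46297329, plus strand: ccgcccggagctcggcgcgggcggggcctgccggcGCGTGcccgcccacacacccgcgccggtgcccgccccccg
In CA9 the core reads ACGTG on the opposite strand and begins 18 bases before the start, and in EGLN1 it reads ACGTG 13 bases before the start. In ADM, EPAS1 and HIF1A it reads GCGTG, beginning 101, 117 and 204 bases before the start. The windows of ARNT and EGLN3 and the second window of HIF1A held neither form, which says only that these letters are not in those stretches. A match is a description of sequence and not evidence of binding.

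Among the 7 tested genes the median log2 fold change was -0.22, beside -0.04 over all tested genes, with 4 negative and 3 positive values. The groups did not overlap in 2 of the 7 with GD-07 below and in 1 with GD-07 above, against 30.5% and 25.3% of all tested genes, shares that leave the count near the background. MYC mRNA itself, the transcript of the compound's stated target, measured 86.0 and 67.5 TPM in the control libraries, and 29.1 and 23.6 TPM under GD-07 (limma adjusted p = 0.0109).

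Of 22 other tested HIF regulators, covering hydroxylases, ligase parts, coactivators and chaperones, none passed limma's adjusted test. An unadjusted limma p under 0.05 was found for 1 of the 22, beside 24.8% of all tested genes. There were 13 negative and 9 positive values, with a median of -0.03. The 2 with the smallest p were UBE2M, a NEDD8-conjugating enzyme that activates cullin ligases, at -0.41 (limma adjusted p = 0.13), and CITED2, a HIF-induced competitor for the coactivators EP300 and CREBBP, at -0.27 (limma adjusted p = 0.301). EP300 measured 7.95 and 4.08 TPM in the control libraries, and 3.15 and 4.48 TPM under GD-07. None of 30 other enzymes of the 2-oxoglutarate and oxygen-dependent class passed limma's adjusted test, with 15 negative and 15 positive values and a median of 0.01. For 9 of the 30 the unadjusted limma p was under 0.05, near the 24.8% of all tested genes. The histone demethylases KDM5B, at 0.98 (limma adjusted p = 0.0547), and KDM2B, at -0.73 (limma adjusted p = 0.0567), came nearest and pointed in opposite directions. In some fits with a library left out, regulators or dioxygenases passed, and in those fits the calls over all tested genes rose as well.

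Of 41 tested hypoxia targets outside glycolysis, 2 passed, both lower with GD-07, and 39 did not, beside the 5.21% called over all genes. The median was 0.03, with 20 negative and 21 positive values. PDGFB, a growth factor for vessel-supporting cells, fell from 2.33 and 2.10 TPM to 0.684 and 0.750 TPM (limma log2 fold change -0.90 ± 0.21, adjusted p = 0.0435). PDGFB passed the filter only through the controls, where it was high, so its call is conditioned on the difference it describes, and the value was -1.4995 with a pseudocount of 0.1 TPM and -0.33 with 5 TPM. TFRC, the transferrin receptor that imports iron and is also described as a MYC target, fell from 22.8 and 18.8 TPM to 9.60 and 11.9 TPM (limma log2 fold change -0.89 ± 0.19, adjusted p = 0.0369). Both calls ended without control replicate 1 (limma adjusted p = 0.287 for PDGFB and 0.184 for TFRC), and that of PDGFB also without control replicate 2 (0.104). TFRC did not pass without limma's trend (0.0535), nor PDGFB with a pseudocount of 0.1 TPM (0.0526). How many genes of this list passed, and in which direction, depended on which GD-07 library was left out. The calls over all tested genes rose in both of these fits as well. Widely used hypoxia genes such as DDIT4, BNIP3 and ANGPTL4, named after their values were seen, showed log2 differences of -0.03, -0.17 and 0.25 and did not pass.

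The glycolytic genes that HIF can induce were lower with GD-07 where they passed. Of 22 tested, 5 fell and 17 did not pass, beside 3.19% of all tested genes called lower. An unadjusted limma p under 0.05 was found for 13 of the 22, beside 24.8% of all tested genes. There were 19 negative values, and the median log2 fold change was -0.54, beside an interquartile range of -0.29 to 0.21 over all tested genes. In 18 of the 22 both GD-07 libraries lay below both controls, against 30.5% of all tested genes. PGK1, phosphoglycerate kinase, fell (limma log2 fold change -1.38 ± 0.16, adjusted p = 0.0109). The others that passed were SLC16A3, PKM, PFKP and LDHA (limma adjusted p = 0.0374, 0.0497, 0.0428 and 0.0376), LDHA being named beyond the 4 largest changes. PKM did not pass with a pseudocount of 0.1 or 5 TPM, after median-ratio rescaling, without the trend or with a replicate block. LDHA and PFKP did not pass without the trend or after quantile normalization, nor LDHA after median-ratio rescaling. Without control replicate 1 only PGK1 of these 5 passed, and without control replicate 2 only PGK1 of them, with HK1 as a further call. The count of lower calls in this list rose when either GD-07 library was left out, as did that over all tested genes. Many of these genes are also known as MYC targets, and no test of the difference between the lists was made. Of 5 tested targets that respond more to HIF-2, none passed limma's adjusted test and 1 had an unadjusted p under 0.05. CCND1, which encodes cyclin D1, differed by -0.54 in log2 (limma adjusted p = 0.0842), and the iron transporter SLC11A2 by 0.42 (limma adjusted p = 0.311).

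**Figure D3:**
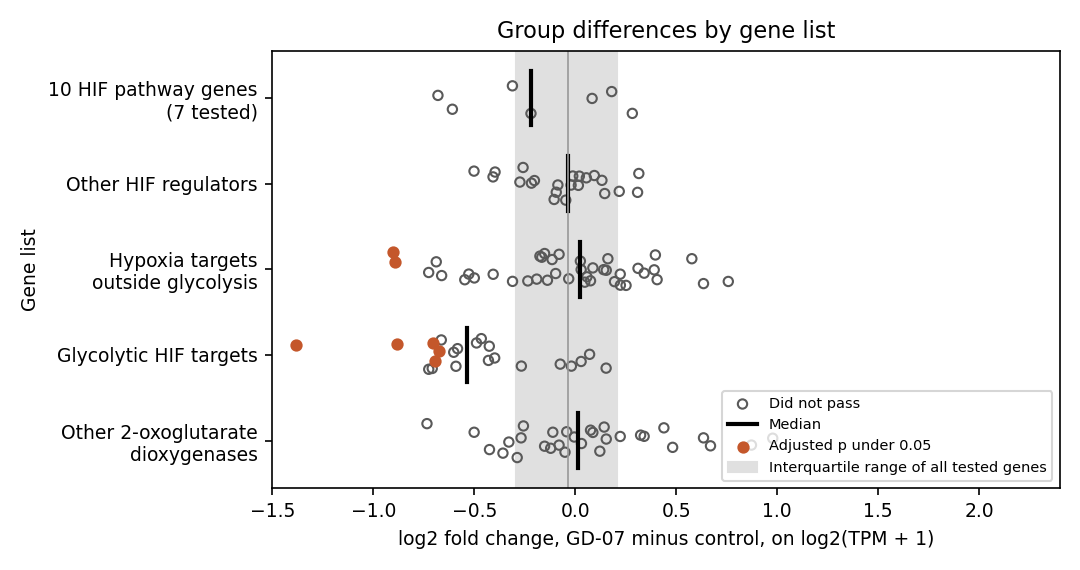
log2 fold change of each tested gene by list, GD-07 minus control on log2(TPM + 1), with called genes filled, list medians as black bars and the interquartile range of all 13063 tested genes in grey. The median is -0.54 for the glycolytic targets and 0.03 for the other hypoxia targets, and none of the HIF pathway genes is filled.

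The GD-07 replicates differed from each other in the hypoxia targets and in other lists. Of the 41 tested outside glycolysis, 36 (87.8%) were higher in GD-07 replicate 2 than in replicate 1, compared with 59.2% of all tested genes, and the median difference was 0.49 on the log2(TPM + 1) scale against 0.08. Also higher in replicate 2 were 25 of 30 dioxygenases (83.3%, median difference 0.31) and 4 of 5 carbonic anhydrases (0.34). Markers of other cell types were so in 4 of 5 (0.37) and glycolytic targets in 15 of 22 (68.2%, 0.29). All 5 HIF-2 targets and all 3 NDRG relatives of NDRG1 were higher, but by medians of only 0.07 and 0.19. VEGF ligands and receptors had 2 of 5 and other HIF regulators 10 of 22 (45.5%). The lists overlap, since CA12 and several dioxygenases, P4HA2 among them, are also counted among the 41 hypoxia targets. CA9, at 2.32, was tested only because replicate 2 was high, and of the other 6 tested pathway genes 5 were higher in replicate 2, with ADM at 0.45 and VHL, the exception, at -0.04. AK4, an adenylate kinase of mitochondria, was at 4.87 TPM in replicate 1 and 11.4 TPM in replicate 2, and P4HA2, a collagen prolyl hydroxylase, was at 34.6 and 61.5 TPM, both chosen after their values were seen. In the controls 15 of the 41 (36.6%) were higher in replicate 2 than in replicate 1, beside 29.5% of all tested genes. The same GD-07 replicate 2 carried 6.52% of its TPM in mitochondrially encoded transcripts, while the other 3 libraries carried 2.52% to 4.36%, and it listed 14683 symbols at 0 where the others listed 11598 to 12346. The part of that composition in these splits was not tested.

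**Figure D4:**
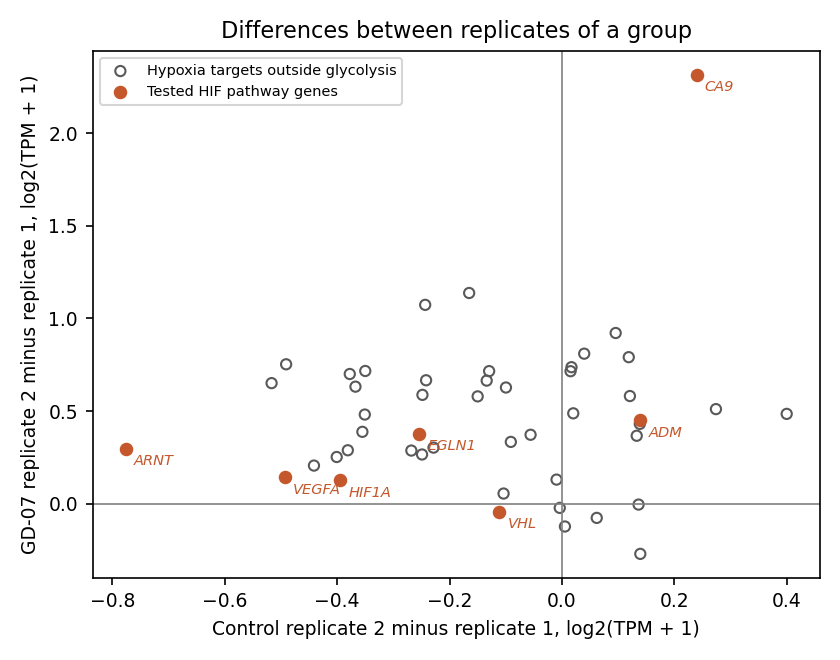
Difference between the replicates of a group on log2(TPM + 1), replicate 2 minus replicate 1, for controls on the horizontal and GD-07 on the vertical axis, with the 41 other hypoxia targets open and the 7 tested pathway genes filled. Most points lie above 0 on the vertical axis, with CA9 at 2.32, while ARNT lies farthest to the left at -0.78.

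Profiles closest to HIF1A over the 4 libraries, by the root mean square difference of mean-centred log2(TPM + 1) values, belonged to RPRD1A, ATF1, YY1, SPDL1 and G3BP2, at 0.0081 to 0.0283. Those closest to VEGFA belonged to PDXDC1, ATP7B, ADAMTSL5, TAF1B and CLIC4, at 0.0091 to 0.0175. With 4 libraries many genes share any one profile, so these names are a description only.

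The labelled cell type was checked against 14 markers of ovarian epithelium and cell state. VIM, a mesenchymal filament gene, was at 2302 to 2656 TPM. CDH2, the other mesenchymal marker of the 14, was at only 0.267 and 0.226 TPM in the controls and 0.316 and 0.354 TPM with GD-07. PAX8, WT1, KRT7 and MUC16 were under 0.13 TPM in all 4 libraries, KRT7 being listed at 0, and 10 of the 14 were under 1 TPM throughout. Of the 2 epithelial markers with a mean above that level, KRT18 lay between 4.4005 and 5.82 TPM, and EPCAM measured 1.41 and 1.48 TPM in the control libraries, and 2.12 and 4.29 TPM under GD-07 (limma adjusted p = 0.141). Of 16 markers of blood, vessel, stromal and liver cells, 8 were under 1 TPM in all 4 libraries, with CD3E at 0, and their summed level was 74.95 and 65.2 TPM in the controls and 42.4 and 56.7 TPM with GD-07, mostly COL1A1 and ACTA2. The libraries summed to between 912781 and 918646 TPM.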

How the data were processed

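The authors deposited a single table of TPM per gene symbol for the 4 libraries, and the depth of each library is unknown. The build GRCh38 and the tools limma 3.60.4, Subread and kallisto appear in the submitters' processing notes. Not given in the sources used here are what each did, how transcripts were combined and whether strand was used. Reads from HIF1A, VEGFA, EGLN3 and CA9 therefore cannot be told apart with certainty from genes that overlap them on the opposite strand. The spans of HIF1A, ARNT and EGLN3 also overlap genes on the same strand, which counting by strand would not separate. SPTSSA, which overlaps EGLN3 in this way, measured 29.55 and 27.1 TPM in the control libraries, and 22.0 and 26.4 TPM under GD-07. Its part in the EGLN3 values was not tested.

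Groups follow the labels. Symbols with a mean of at least 1 TPM (13063) were transformed as log2(TPM + 1) and compared with limma 3.58.1 in R 4.3.3 (intensity trend, two-sided, no block), with Benjamini-Hochberg adjustment over all of them. An exact permutation test of 2 against 2 cannot go below p = 0.333, so none was run. The procedure was run on simulated tables with known changes. Each gene's spread was drawn there without regard to its level, so that run cannot show how the intensity trend acts in these data. The alternatives were other pseudocounts, filters and scalings, no trend, a replicate block and each library left out, which assumes that a group's lone remaining library varies as the intact pair does.

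The genes and lists were chosen with earlier results of these data known. All 10 pathway genes are named. From each list up to 4 genes that passed with the largest change are named, or the 2 with the smallest p where none passed. Further genes are named for a role described beside them or after their values were seen. Positions are from GENCODE 29 on GRCh38 and promoter windows from RefSeq on GRCh38.p14.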

Additional observations from a re-analysis of the deposited data

How the results depend on the processing

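HIF1A, ARNT, VHL, EGLN1 and VEGFA kept the sign of their differences under every alternative run. Another filter, no trend or a replicate block leaves the log2 fold change as it was, so these could not alter a sign. Nor could leaving out a library reverse HIF1A, ARNT or VHL, whose groups did not overlap. Rescaling could have changed any sign, and another pseudocount or a library left out those of EGLN1 and VEGFA. CA9 turned negative with a pseudocount of 0.1 TPM (-0.55) and without control replicate 1 (-0.036), and ADM turned positive without GD-07 replicate 1 (0.0064). With a library left out, ADM ranged from -0.44 to 0.0064 and CA9 from -0.036 to 1.24. CA9 could not be fitted with a filter at 5 TPM or without GD-07 replicate 2, where its mean was under the filter.

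With no filter limma called 0 of 26773 genes (3970 at an unadjusted p under 0.05, smallest adjusted p = 0.219), so that hypoxia targets outside glycolysis, glycolytic targets and VEGF ligands and receptors all had 0 calls. Without the trend 385 genes were called, with 1 hypoxia target outside glycolysis and 2 glycolytic targets. With a pseudocount of 0.1 TPM 1 hypoxia target outside glycolysis passed, after median-ratio rescaling 3 glycolytic targets and 2 dioxygenases, after quantile normalization 2 dioxygenases, and with a filter at 5 TPM 1 carbonic anhydrase and 2 dioxygenases. The split of calls moved from 417 lower and 264 higher to 395 and 383 after quantile normalization and to 407 and 355 after median-ratio rescaling.

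Replicates of the same number did not deviate together (r = -0.28 across genes), so the numbers were not read as pairs. With a replicate block 912 genes and 1 of the pathway genes, ARNT (limma adjusted p = 0.0439), were called, with 1 gene each of the adrenomedullin system, carbonic anhydrases and dioxygenases. A crossed replicate block, chosen after seeing the data, gave 2934 genes, 2 pathway genes, 1 other HIF regulator, 10 hypoxia targets outside glycolysis, 12 glycolytic targets, 1 HIF-2 target, 2 VEGF ligands and receptors, 1 adrenomedullin gene, 2 carbonic anhydrases, 7 dioxygenases, 1 ovarian marker and 2 markers of other cells.

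With each library left out in turn, calls ranged from 286 to 2308 genes, from 0 to 2 pathway genes, from 0 to 3 other HIF regulators, from 0 to 10 hypoxia targets outside glycolysis, from 1 to 14 glycolytic targets, from 0 to 7 dioxygenases, from 0 to 2 carbonic anhydrases, and from 0 to 1 among HIF-2 targets, adrenomedullin genes, ovarian markers and markers of other cells. These counts depend on which pair of libraries supplied the spread. TPM keeps no depth, so how far counting error limits the low genes is unknown.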
